A study of Mus musculus with 14 samples.

Results

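The TNF receptor superfamily was followed in lung group 2 innate lymphoid cells (ILC2s) through 10 of its genes, Tnfrsf1a, Tnfrsf1b, Tnfrsf4, Tnfrsf8, Tnfrsf9, Tnfrsf18, Tnfrsf25, Ltbr, Fas and Cd27. They were picked by name and matched by symbol, and all 10 were present among the 53278 genes of each count and TPM table. All 10 also passed the filter on low counts, among 15466 genes in the stimulation experiment and 17335 in the Blimp-1 experiment. RNA-seq had been performed on 14 libraries of ILC2s, each from an individual female mouse by the labels. The captions of the paper's figures with these data instead describe sorting samples from pooled animals. The ILC2s had been sorted from whole lung as live, lineage-, CD90.2+, CD3- cells with about 15000 cells per well. In the stimulation experiment, 8 B6 mice gave 4 unstimulated libraries and 4 libraries of ILC2s kept for 24 h in IL-33 (20 ng/mL), an alarmin released by damaged tissue. The labels have the unstimulated ILC2s cultured without IL-33, for 24 h by the design text, which also calls them ex vivo, so effects of IL-33 and of culture cannot be told apart if they were not cultured. In the Blimp-1 experiment, 3 ControlIL7RaCre and 3 Blimp-1IL7RaCre libraries came from mice matched for age, whose ILC2s were cultured for 72 h in 20 ng/mL of IL-33 plus 20 ng/mL of IL-25, to which the methods add IL-2. The age itself is not given in the labels for either experiment. Blimp-1, encoded by Prdm1, is a transcriptional repressor of lymphocytes, and floxed Prdm1 was deleted by Cre from the IL-7 receptor locus, which is active in all ILCs and in other lymphocytes, so the loss is not restricted to ILC2s and predates the sort. The groups of the Blimp-1 experiment are called Control and Blimp-1-deficient here, all of their libraries had been activated, and by name all carry IL7RaCre.

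Receptors of this family are cell-surface proteins engaged by the trimeric ligands of the TNF superfamily. One branch recruits TRAF adaptors to activate NF-kappaB and serves as costimulatory receptors on lymphocytes, here OX40 (Tnfrsf4), CD30 (Tnfrsf8), 4-1BB (Tnfrsf9), GITR (Tnfrsf18) and CD27. Another carries a cytoplasmic death domain, here TNFR1 (Tnfrsf1a), DR3 (Tnfrsf25) and Fas, while TNFR2 (Tnfrsf1b) and the lymphotoxin beta receptor (Ltbr) signal through TRAFs without a death domain. In ILC2s, the DR3 ligand TL1A and GITR engagement are known to promote type 2 cytokine production.

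Of the 10 genes, 6 lie on chromosome 4, 3 on chromosome 6 and Fas on chromosome 19 (GENCODE M21, GRCm38). Tnfrsf8 (chr4:145267137-145315164, minus strand) and Tnfrsf1b (chr4:145213463-145246870, minus strand) are separated by 20.3 kb with 0 protein-coding genes between them, as are Tnfrsf4 (chr4:156013843-156016612, plus strand) and Tnfrsf18 (chr4:156026164-156028895, plus strand), 9.55 kb apart. Tnfrsf9 (chr4:150914562-150946102, plus strand) and Tnfrsf25 (chr4:152115934-152120119, plus strand) lie alone. Cd27 (chr6:125232622-125237010, minus strand), Ltbr (chr6:125306571-125313885, minus strand) and Tnfrsf1a (chr6:125349362-125362484, plus strand) form the group on chromosome 6, and Fas occupies chr19:34290666-34327772 on the plus strand. The strand used in counting is not stated. Tnfrsf18 shares 27.2% of its exon bases with Gm16008 on the opposite strand, which held 8 to 91 counts per library, so its counts carry that uncertainty.

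Upstream sequences were examined for the genes that moved most after IL-33. All 10 genes matched the RefSeq promoter table (GRCm38.p6), with 12 annotated start sites, and the 250 bases before each start were searched on both strands for the NF-kappaB consensus, the AP-1 letters TGANTCA, the Blimp-1 core GTGAAAG and the GATA letters AGATAA. Of 32851 such windows in the table, 3.9% held the NF-kappaB consensus, 6.75% TGANTCA, 3.57% GTGAAAG and 9.99% AGATAA. At least 1 of these motifs was present in 3 of the 12 windows, a share of 25% beside 22% of all windows. Tnfrsf8 (chr4:145315165-145315414, minus strand) and the second start site of Tnfrsf9 (chr4:150927749-150927998, plus strand) each held an NF-kappaB match and an AP-1 match, and Fas (chr19:34290409-34290658, plus strand) held an AP-1 match. They are printed 5′ to 3′ with the matches in capitals, together with Tnfrsf4 (chr4:156013445-156013694, plus strand), which rose, and Cd27 (chr6:125237028-125237277, minus strand), which fell, both with 0 matches.
Tnfrsf8: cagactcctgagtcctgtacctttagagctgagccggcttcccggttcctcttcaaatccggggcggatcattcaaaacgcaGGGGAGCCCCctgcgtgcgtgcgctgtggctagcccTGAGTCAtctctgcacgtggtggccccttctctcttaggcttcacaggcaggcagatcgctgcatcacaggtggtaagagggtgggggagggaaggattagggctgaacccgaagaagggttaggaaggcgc
Tnfrsf9, second start site: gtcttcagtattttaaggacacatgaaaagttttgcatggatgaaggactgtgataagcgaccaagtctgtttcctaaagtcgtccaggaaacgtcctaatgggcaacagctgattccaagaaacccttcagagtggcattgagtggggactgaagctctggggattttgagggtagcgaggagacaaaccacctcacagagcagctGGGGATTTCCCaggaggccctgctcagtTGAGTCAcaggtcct
Fas: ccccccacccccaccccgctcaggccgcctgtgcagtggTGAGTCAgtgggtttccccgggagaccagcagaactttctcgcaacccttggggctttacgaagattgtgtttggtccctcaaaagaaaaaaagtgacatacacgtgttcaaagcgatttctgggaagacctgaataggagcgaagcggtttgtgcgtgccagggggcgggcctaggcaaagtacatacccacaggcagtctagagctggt
Tnfrsf4: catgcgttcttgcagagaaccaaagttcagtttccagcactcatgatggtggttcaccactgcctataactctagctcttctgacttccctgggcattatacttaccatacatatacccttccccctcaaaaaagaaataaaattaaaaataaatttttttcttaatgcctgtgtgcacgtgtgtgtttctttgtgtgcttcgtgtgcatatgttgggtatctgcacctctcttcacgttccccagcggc
Cd27: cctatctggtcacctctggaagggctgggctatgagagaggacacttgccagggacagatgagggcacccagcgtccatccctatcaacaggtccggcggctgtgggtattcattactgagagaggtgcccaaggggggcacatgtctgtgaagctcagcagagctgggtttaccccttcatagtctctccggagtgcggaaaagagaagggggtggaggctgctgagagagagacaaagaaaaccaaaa
In Tnfrsf9 the capitals nearest the start are the AP-1 match, 15 to 9 bases before it, and the longer run holds 2 overlapping NF-kappaB matches between 43 and 33 bases before the start. In Tnfrsf8 the NF-kappaB match lies 168 to 159 bases and the AP-1 match 132 to 126 bases before the start, and in Fas the AP-1 match lies 211 to 205 bases before it. No window of the 10 genes held the Blimp-1 core or the GATA letters. A match describes letters only, and its absence says nothing about a factor.

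The stimulation libraries held 10470125 to 32849428 counts and the Blimp-1 libraries 13570188 to 76448945. In each experiment 1 library stood apart. IL-33 stimulated 3 had the fewest counts of its experiment, and its log2 ratios to the other stimulated libraries had an SD of 1.34 to 1.37, against 0.217 to 0.303 among those 3. Control 2 had 76.8% of its counts and 93.9% of its TPM in 7 loci, Gm26917 and mt-Rnr2 among them, leaving 3150795 counts elsewhere, and its SD against the other Controls was 0.899 to 0.918, against 0.224 between them. Results are therefore given with and without these libraries. Prdm1 stood at 74.0 to 92.8 CPM (counts scaled by library size after TMM normalization) in Controls and at 11.4 to 14.6 in Blimp-1-deficient ILC2s. All 12 ILC2 markers examined, Gata3 and Il1rl1 among them, were detected in every group. Of all genes, 2508 rose and 2484 fell after IL-33 (1805 and 3691 when scaled by library size alone, 990 and 4555 with limma on log2(TPM + 1), 2072 and 3550 without the 7 loci).

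At rest the receptors spanned a wide range of transcript levels. GITR was the most abundant in unstimulated ILC2s at 307 ± 16.8 TPM (SD, n = 4), followed by Tnfrsf1b at 184 ± 11.6 and Tnfrsf25 at 109.5 ± 13.7. Tnfrsf9 stood at 83.9 ± 25.4 TPM, and its range overlapped that of Tnfrsf25. The other 6 receptors were at 26.1 TPM or less in every unstimulated library, with Tnfrsf1a at 19.5 ± 4.47, Cd27 at 15.7 ± 0.58, Fas at 12.0 ± 1.5, Ltbr at 9.74 ± 2.46, Tnfrsf4 at 5.65 ± 2.24 and Tnfrsf8 at 2.04 ± 1.17 TPM. The ranges of Fas and Ltbr overlapped, as did those of Ltbr and Tnfrsf4, while the other neighbours in this order did not.

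The order was different after IL-33. Tnfrsf9 led at 398 ± 92.4 TPM (SD, n = 4), above Tnfrsf18 at 190.0 ± 44.3, Tnfrsf1b at 156 ± 46.5 and Tnfrsf25 at 134 ± 45.1, 3 receptors whose ranges overlapped. Tnfrsf8 moved from the last place to the fifth at 63.6 ± 22.4 TPM, Tnfrsf4 followed at 35.2 ± 14, and Cd27 took the last place at 2.38 ± 0.54. Fas stood at 20.2 ± 3.93 TPM, Tnfrsf1a at 9.95 ± 2.05 and Ltbr at 9.50 ± 1.32. Neighbours from Tnfrsf25 down to Fas overlapped, as did Tnfrsf1a and Ltbr. In IL-33 stimulated 3 the TPM of 7 of the 10 receptors was the lowest of its group, the exceptions being Ltbr, Cd27 and Tnfrsf9.

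**Figure D1:**
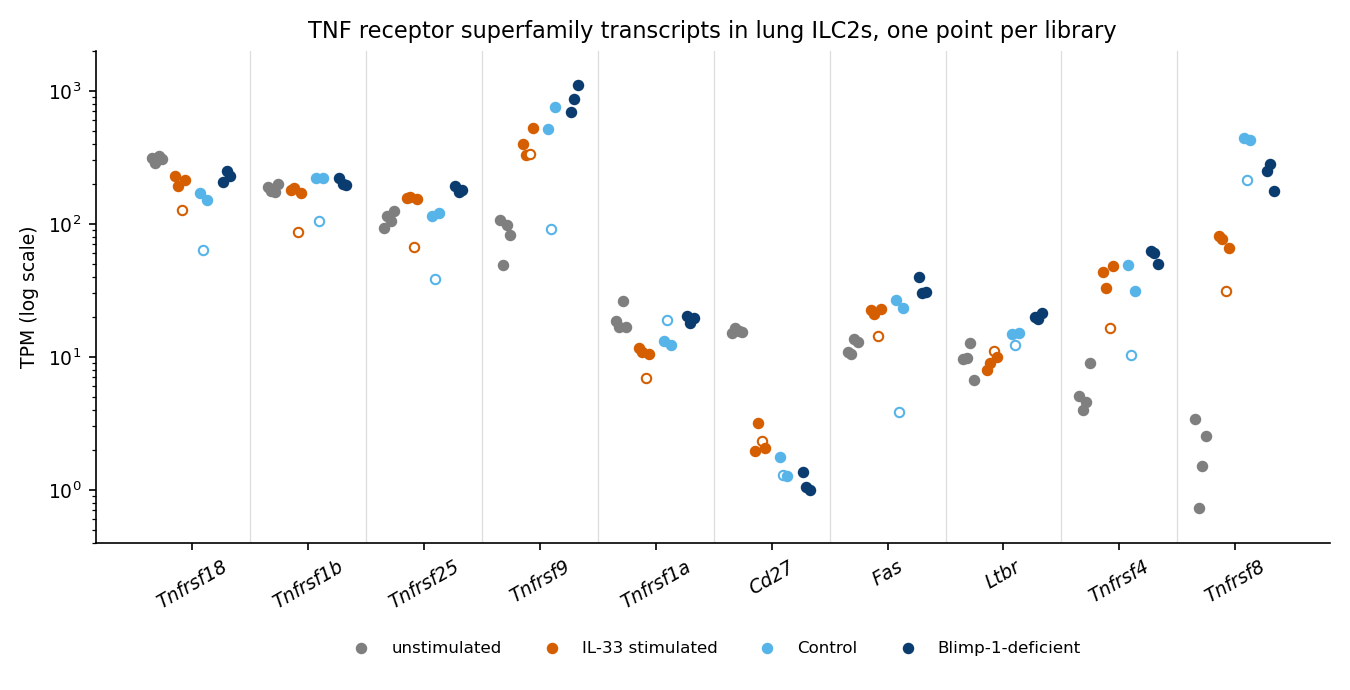
Transcript levels of the 10 receptors in TPM on a log axis, 1 point per library, coloured by group and ordered by the unstimulated mean. Open points are IL-33 stimulated 3 and Control 2, the latter drawn as its TPM rescaled without the 7 loci. Tnfrsf8 spans from 0.724 TPM in an unstimulated library to 439 in Control 1, while Tnfrsf1b stays between 172 and 222 in the libraries drawn as filled points.

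After IL-33, the costimulatory receptors Tnfrsf8, Tnfrsf4 and Tnfrsf9 and the death receptor Fas rose, and Cd27 and Tnfrsf1a fell. These are 4 of 10 receptors higher and 2 of 10 lower, where 16.2% of the 15466 genes tested were higher and 16.1% lower (edgeR quasi-likelihood test, adjusted p below 0.05). The median log2 fold change of the 10 was 0.46, beside 0.06 over all genes tested. Without IL-33 stimulated 3, Tnfrsf25 and Tnfrsf1b also passed on the higher side and Tnfrsf18 on the lower, giving 6 and 3 of 10, with 27.5% and 29.7% of all genes called in that fit. The 2 groups did not overlap in CPM for 4 receptors on the higher and 3 on the lower side, beside 17% and 20.9% of all genes. Summed markers of mast cells and basophils, mostly Kit, went from 305 to 371 CPM at rest to 129 to 185 CPM after IL-33. Of that list, Cpa3 went from 6.68 to 12.8 CPM to at most 0.0708 CPM. Fcer1a, Mcpt4 and Mcpt8 were at most 2.17 CPM in both groups. Summed epithelial and stromal markers went from 442 to 694 to 250 to 432 CPM, with members in both directions. Epcam fell from 52.4 to 69.5 to 2.27 to 3.55 CPM and Col1a2 from 94.8 to 192 to 41.7 to 56.8 CPM. Pecam1 rose from 48.3 to 80.9 to 109 to 140 CPM. The part of other cells in these results was not tested.

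CD30 showed the largest change of the 10. Tnfrsf8 stood at 3.58, 0.716, 1.49 and 2.46 CPM in unstimulated libraries 1 to 4, resting on 25 to 103 counts, and at 96.3, 93.2, 41.3 and 85.9 CPM in IL-33 stimulated libraries 1 to 4. Every stimulated library lay above every unstimulated library, with IL-33 stimulated 3 the lowest of its group. The rise was 38.5-fold, a log2 fold change of 5.27 ± 0.54 (SE, edgeR adjusted p = 0.000248), and 5.49 ± 0.31 without IL-33 stimulated 3.

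OX40, which sustains T cell responses through its ligand on antigen-presenting cells and ILC2s, moved the same way from a low start. Tnfrsf4 stood at 2.12, 1.55, 1.78 and 3.43 CPM in the unstimulated libraries and at 20.4, 15.8, 8.57 and 24.6 CPM after IL-33. The groups did not overlap, and the difference was 7.80-fold, a log2 fold change of 2.96 ± 0.40 (SE, edgeR adjusted p = 0.000917). Without IL-33 stimulated 3, again the lowest of its group, it was 3.18 ± 0.25.

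4-1BB, an activation-induced receptor of lymphocytes, was already expressed at rest. Tnfrsf9 stood at 88.2, 38.0, 76.1 and 63.0 CPM in the unstimulated libraries and at 376, 318, 347 and 539 CPM after IL-33. The lowest stimulated library exceeded the highest unstimulated library, and IL-33 stimulated 3 lay within its group. Its log2 fold change was 2.58 ± 0.28 (SE, edgeR adjusted p = 0.000359), or 5.96-fold.

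CD27, a costimulatory receptor of T and NK cells that is lost with differentiation in some lymphocytes, went the other way. Cd27 stood at 10.8, 11, 10.4 and 10.1 CPM in the unstimulated libraries and at 1.58, 2.59, 2.07 and 1.80 CPM after IL-33. The groups were far apart relative to their spread, with an SD of 0.387 CPM at rest and 0.436 after IL-33. Cd27 was 5.25-fold lower, a log2 fold change of -2.39 ± 0.20 (SE, edgeR adjusted p = 0.000108), and -2.40 ± 0.18 without IL-33 stimulated 3. The summed level of 7 T cell markers also went from 49.0 to 58.7 CPM in unstimulated libraries to 13.7 to 25.7 CPM after IL-33, with 7 of 7 detected in both groups. Of these, Cd3g went from 32.4 to 39.0 CPM to 8.87 to 15.5 CPM and Cd3e from 4.86 to 9.48 CPM to 1.67 to 5.25 CPM. Whether T cells had a part in the fall of Cd27 was not tested, and in bulk RNA fewer cells of a type and less RNA per cell cannot be told apart. Cd27 shares 5.54% of its exon bases with Mir8113, which had 0 counts in every library.

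GITR did not pass with all libraries under edgeR's TMM scaling. Tnfrsf18 stood at 145, 124, 142 and 131 CPM in the unstimulated libraries and at 119, 104, 74.0 and 122 CPM after IL-33. All 4 stimulated libraries lay below all 4 unstimulated libraries, but the log2 fold change of -0.37 ± 0.15 (SE) had an edgeR adjusted p of 0.101 (0.016 to 0.203 over 18 alternatives). It was lower in all 18 alternatives and passed in 6 of them, at -0.23 ± 0.07 without IL-33 stimulated 3 (edgeR adjusted p = 0.0222), -0.53 with library size alone, -0.49 without the 7 loci, and -0.72 to -0.73 with limma on TPM in each of 3 forms. In these fits 29.7%, 23.9%, 23% and, with limma, 16.1% to 30% of all genes were lower, beside 16.1% in the main fit.

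Among the death-domain receptors, Fas rose and Tnfrsf1a fell. Fas, which triggers apoptosis when bound by Fas ligand, stood at 5.97, 5.41, 6.97 and 6.55 CPM in the unstimulated libraries and at 14.1, 13.4, 9.95 and 15.4 CPM after IL-33. The groups did not overlap, and the change was 2.12-fold (log2 fold change 1.08 ± 0.18, SE, edgeR adjusted p = 0.00257). Tnfrsf1a, the broadly expressed receptor for TNF, stood at 14.7, 12.4, 19.2 and 12.1 CPM at rest and at 10.3, 9.88, 6.90 and 10.2 CPM after IL-33. Its groups did not overlap either, with IL-33 stimulated 3 below the rest. Its log2 fold change of -0.65 ± 0.21 (SE) lay close to the threshold (edgeR adjusted p = 0.0466, 0.00905 to 0.144 over 18 alternatives), and leaving out unstimulated 1, 2 or 3 or IL-33 stimulated 1, 2 or 4 ended the call, as did applying no filter on low counts (adjusted p = 0.110) or the replicate block (adjusted p = 0.144).

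For DR3 the call turned on a single library and on the method. Tnfrsf25 stood at 64.4, 74.4, 68.5 and 80.3 CPM in the unstimulated libraries and at 124, 128, 58.2 and 131 CPM after IL-33. IL-33 stimulated 1, 2 and 4 lay above every unstimulated library, while library 3 lay below them all. With all libraries the log2 fold change was 0.62 ± 0.24 (SE, edgeR adjusted p = 0.0841), and without IL-33 stimulated 3 it was 0.83 ± 0.07 (edgeR adjusted p = 7.28e-06). DESeq2 called it with all libraries (log2 fold change 0.62, adjusted p = 0.0299), while limma on log2(TPM + 1) gave 0.22 (adjusted p = 0.600).

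The receptors without a death domain that bind TNF and lymphotoxins did not pass with all libraries. Tnfrsf1b, whose product TNFR2 prefers membrane-bound TNF, stood at 188 to 219.6 CPM at rest and at 238, 248, 126 and 246 CPM after IL-33. As with Tnfrsf25, IL-33 stimulated 3 lay below every unstimulated library and the other stimulated libraries above them. Its log2 fold change was 0.08 ± 0.20 (SE, edgeR adjusted p = 0.786) with a 95% interval of -0.39 to 0.55, and 0.26 ± 0.06 without that library (edgeR adjusted p = 0.00571). With all libraries its direction was lower instead under scaling by library size alone, limma on TPM or counts without the 7 loci. Ltbr stood at 4.44 to 8.54 CPM at rest and at 6.51 to 9.95 CPM after IL-33, overlapping groups with a 95% interval of -0.26 to 0.86 on the log2 scale (edgeR adjusted p = 0.361). Its log2 fold change of 0.30 was -0.01 with limma on log2(TPM + 1).

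**Figure D2:**
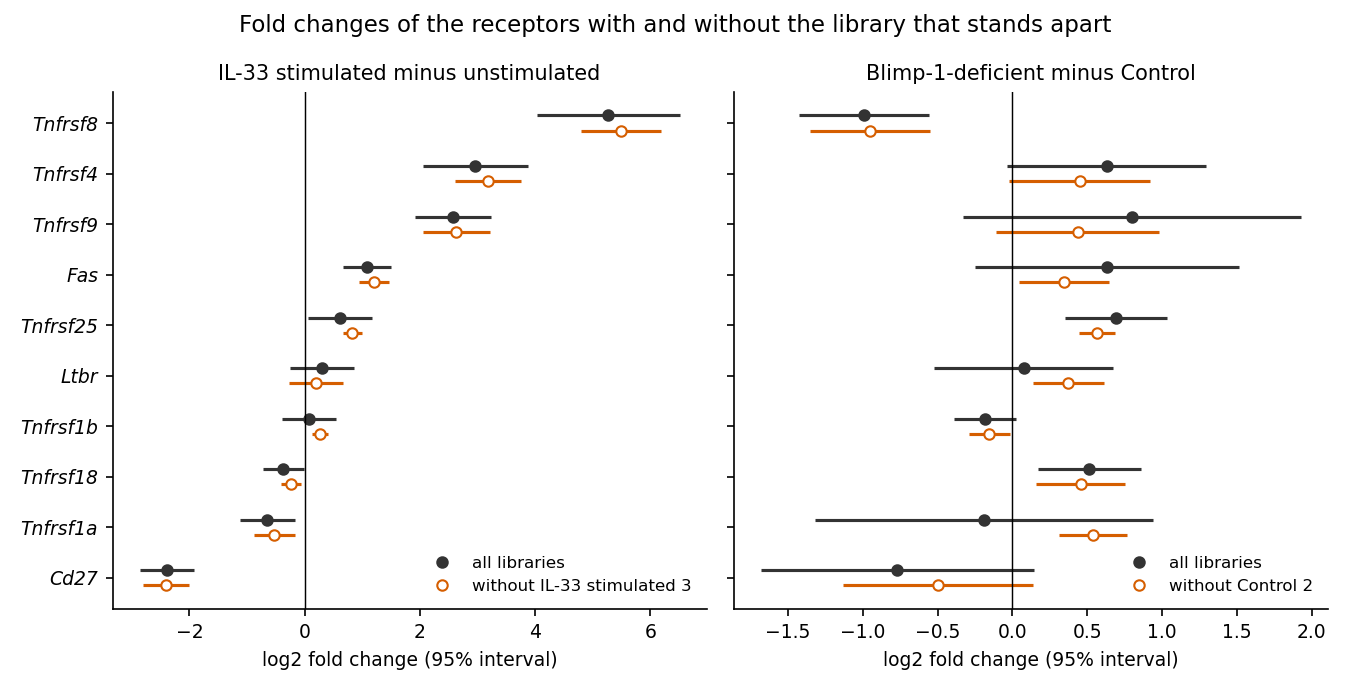
Log2 fold changes with 95% intervals for the 10 receptors after IL-33 (left) and in Blimp-1-deficient ILC2s (right), with all libraries (filled) and without IL-33 stimulated 3 or Control 2 (open). After IL-33, leaving out the library keeps every direction and narrows every interval. On the right, Tnfrsf8 is the only receptor whose interval lies below 0 with all libraries, and Tnfrsf1a moves from -0.19 to 0.54 without Control 2.

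The likeness of other genes to the receptors that changed most was described over the 8 stimulation libraries, as Pearson's r of log2(CPM + 1) among 10809 genes with a mean of at least 5 CPM. These libraries share the contrast and their depths, so r is given without a test. Closest to Tnfrsf8 were Fam46a (r = 0.9982), Eif1a (0.9960) and Pgam1 (0.9952), and closest to Tnfrsf4 were 4932438H23Rik (0.9981) and Adora2b (0.9975). Tnfrsf9 was nearest to Slc17a6 (0.9940), Bnip3l (0.9937) and Kctd5 (0.9933). Cd27 was nearest to Slc9a9 (0.9986), the BH3-only gene Bcl2l11 (0.9977) and Smad4 (0.9967), the common mediator of TGF-beta signals.

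In activated Control ILC2s at 72 h, Tnfrsf9 and Tnfrsf8 were the leading receptors. In Controls 1 and 3 Tnfrsf9 stood at 515 and 756 TPM and Tnfrsf8 at 439 and 429.9 TPM, above Tnfrsf1b at 219.5 and 219.8, Tnfrsf18 at 169 and 151 and Tnfrsf25 at 115 and 119.7 TPM. Tnfrsf4 was at 49.1 and 31.2 TPM, Fas at 26.7 and 23.4, Ltbr at 14.8 and 15, Tnfrsf1a at 13.2 and 12.2 and Cd27 at 1.77 and 1.28 TPM. No neighbouring pair in this order overlapped in these 2 libraries. In Control 2 the deposited TPM of all 10 receptors was 0.0794 to 13.1, beside the 93.9% of its TPM in the 7 loci.

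Tnfrsf9 also led in Blimp-1-deficient ILC2s at 887 ± 207 TPM (SD, n = 3), whereas Tnfrsf8 at 235 ± 53.0 overlapped with Tnfrsf18 at 229 ± 21.9, and Tnfrsf18 with Tnfrsf1b at 206 ± 13.6. Tnfrsf25 followed at 182 ± 9.18, Tnfrsf4 at 57.6 ± 6.67, Fas at 33.5 ± 5.70, Ltbr at 20.1 ± 1.20, Tnfrsf1a at 19.3 ± 1.09 and Cd27 at 1.13 ± 0.20 TPM. Ltbr and Tnfrsf1a overlapped. The experiments differ in culture time and cytokines and were deposited as separate tables, so levels are not compared between them by a test.

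With all 6 libraries, 0 of the 10 receptors passed the test between Blimp-1-deficient and Control ILC2s, where 0.45% of the 17335 genes tested were higher and 0.306% lower (edgeR adjusted p below 0.05). At an unadjusted p below 0.05 there were 3, Tnfrsf8 on the lower side and Tnfrsf25 and Tnfrsf18 on the higher side, where 6.17% of all genes were higher and 5.78% lower at that unadjusted level. DESeq2 called these same 3 at an adjusted p below 0.05, as it did 3.24% of the 17205 genes with an adjusted p on the higher and 3.2% on the lower side. Without Control 2, 2 receptors were higher (Tnfrsf25 and Tnfrsf1a) and 1 lower (Tnfrsf8), with 8.25% and 5.72% of all genes called. The median log2 fold change of the 10 was 0.29 with all libraries and 0.41 without Control 2, beside -0.02 and 0.01 over all genes. The groups did not overlap in CPM for 3 receptors on the higher and 3 on the lower side, beside 11.8% and 10.8% of all genes. Summed markers of ILC3s, mostly Il22, stood at 1.95 to 5.63 CPM in Controls against 11.2 to 26.5 CPM in Blimp-1-deficient ILC2s. Those of mast cells and basophils, mostly Kit, stood at 137 to 150 CPM against 163 to 211 CPM. The part of either list was not tested.

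CD30 was lower in the absence of Blimp-1 in every library. Tnfrsf8 stood at 405, 419 and 380.4 CPM in Controls 1 to 3 and at 201, 249 and 156 CPM in Blimp-1-deficient libraries 1 to 3. Control 2 was close to the other Controls here, and the highest Blimp-1-deficient library was far below the lowest Control. The difference was 1.99-fold, a log2 fold change of -0.99 ± 0.18 (SE, edgeR adjusted p = 0.0758), and -0.95 ± 0.17 without Control 2 (edgeR adjusted p = 0.0140). With limma on log2(TPM + 1), where Control 2 enters at 13.1 TPM, the direction was the opposite, a log2 fold change of 0.74 on the higher side that did not pass (limma adjusted p = 0.642).

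DR3 was higher. Tnfrsf25 stood at 70.1, 49.7 and 69.7 CPM in the Control libraries, and the Blimp-1-deficient ILC2s stood at 102, 102 and 105 CPM. The groups did not overlap, and the Blimp-1-deficient libraries had an SD of 1.76 CPM. The log2 fold change was 0.69 ± 0.14 (SE, edgeR adjusted p = 0.107), and 0.57 ± 0.05 without Control 2 (edgeR adjusted p = 0.00163). Tnfrsf18 stood at 68.9, 54.6 and 58.9 CPM in Controls and at 73.6, 98.2 and 89.4 CPM in Blimp-1-deficient ILC2s, which did not overlap. Its log2 fold change was 0.51 ± 0.14 (SE, edgeR adjusted p = 0.216), and 0.46 ± 0.13 without Control 2 (edgeR adjusted p = 0.0542).

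For Tnfrsf9, Tnfrsf4 and Fas the Controls were widely spread. Tnfrsf9 stood at 374, 141 and 527 CPM in Controls and at 439, 608 and 769.5 CPM in Blimp-1-deficient ILC2s, and the groups overlapped. Its log2 fold change of 0.80 had a 95% interval of -0.33 to 1.93. Tnfrsf4 stood at 17.9, 8.04 and 10.9 CPM in Controls and at 19.9, 21.2 and 17.5 CPM in Blimp-1-deficient ILC2s, with a 95% interval of -0.04 to 1.30 around 0.63. Fas stood at 12.8, 3.90 and 10.8 CPM against 16.9, 13.9 and 14.1 CPM, groups that did not overlap, with an interval of -0.25 to 1.51. For all 3 genes Control 2 was the lowest library, Fas resting there on 16 counts, and the log2 fold changes without it were 0.44 for Tnfrsf9, 0.45 for Tnfrsf4 and 0.35 for Fas, none past the threshold.

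Tnfrsf1a reversed with Control 2. It stood at 9.12, 27.8 and 8.10 CPM in Controls and at 12.2, 12.0 and 13.0 CPM in Blimp-1-deficient ILC2s, so that Control 2 lay above and the other Controls below every Blimp-1-deficient library. The log2 fold change was -0.19 ± 0.47 (SE, edgeR adjusted p = 0.930) with all libraries and 0.54 ± 0.10 without Control 2 (edgeR adjusted p = 0.0142). Ltbr showed the same arrangement, at 9.26, 16.3 and 9.05 CPM in the Control libraries against 10.9, 11.6 and 12.9 in Blimp-1-deficient ILC2s, with log2 fold changes of 0.08 ± 0.25 and, without Control 2, 0.37 ± 0.10 (SE, edgeR adjusted p = 0.954 and 0.0503). The summed level of 8 epithelial and stromal markers was 3570 CPM in Control 2 and 202 to 309 CPM in Controls 1 and 3. It was 458 to 660 CPM in Blimp-1-deficient ILC2s. Most of the sum in Control 2 was Col1a1 (2170 CPM) and Col1a2 (1340 CPM). Over all Controls Epcam was at 3.65 to 7.25, Pecam1 at 31.7 to 80.8 and Pdgfra at 3.05 to 11 CPM, and Scgb1a1 was at 0. The part of other cells in these values was not tested.

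Tnfrsf1b and Cd27 were the remaining receptors on the lower side. Tnfrsf1b stood at 223, 228 and 215 CPM in the Control libraries, and the Blimp-1-deficient ILC2s stood at 198, 197 and 192 CPM, which did not overlap, with a log2 fold change of -0.18 ± 0.09 (SE, edgeR adjusted p = 0.485). Cd27 was scarce in all 6 libraries, at 1.10, 1.70 and 0.761 CPM in Controls and at 0.737, 0.632 and 0.590 CPM in Blimp-1-deficient ILC2s. It rested on 7 counts in Control 2 and on 49 to 91 elsewhere, and its 95% interval was -1.68 to 0.14 around a log2 fold change of -0.77. The summed T cell markers were 21.4 to 23.0 CPM in Controls and 24.4 to 29.2 CPM in Blimp-1-deficient ILC2s.

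**Figure D3:**
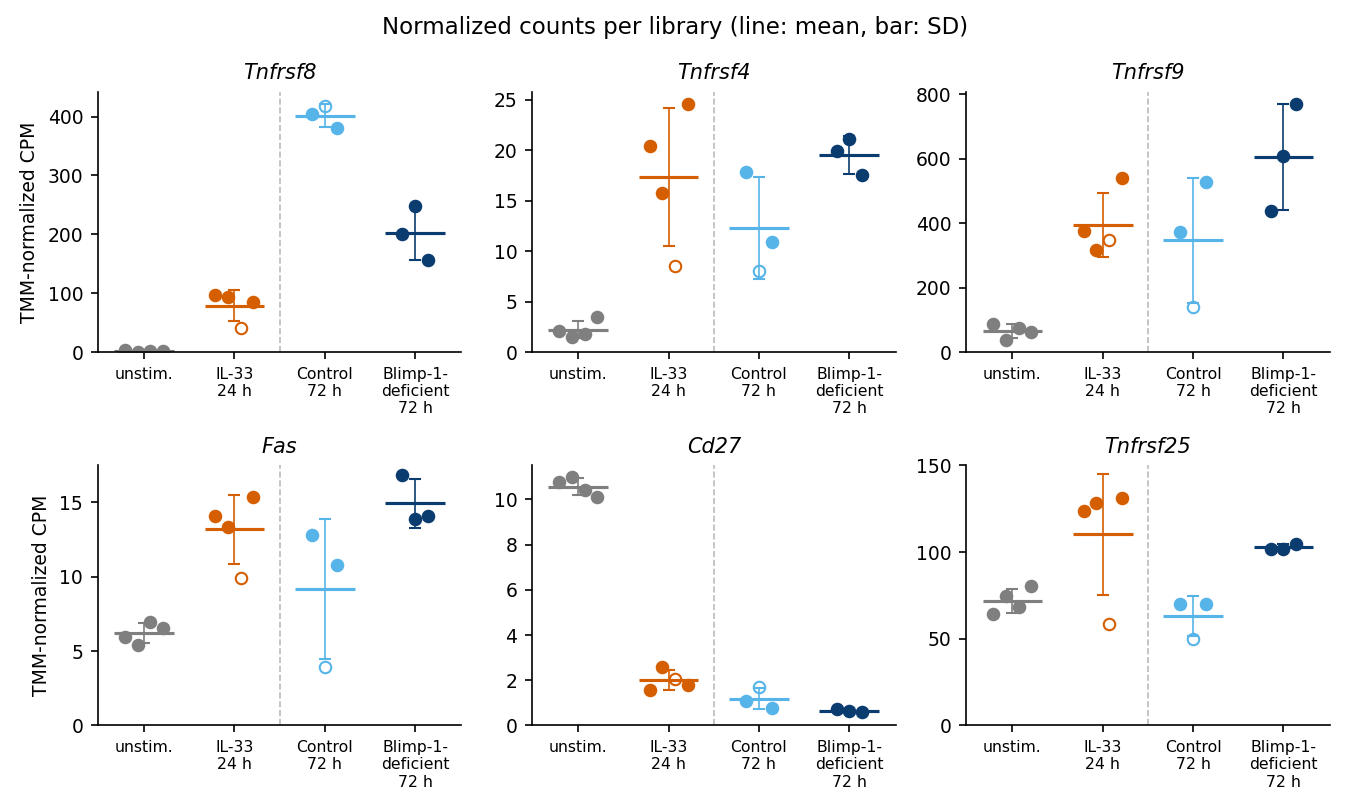
TMM-normalized CPM of 6 receptors in every library, with the group mean (line) and SD (bar). Open points are IL-33 stimulated 3 and Control 2, and a dashed line separates the experiments. Tnfrsf8 lies at 0.716 to 3.58 CPM at rest and at 380.4 to 419 CPM in Controls, and for Tnfrsf25 the open points are the lowest of their groups.

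Receptors that are neighbours on chromosome 4 were also compared as a ratio of TPM within a library, which does not depend on scaling between libraries and is given without a test. Tnfrsf8 to Tnfrsf1b was 0.018, 0.0041, 0.00875 and 0.0128 at rest and 0.447, 0.414, 0.361 and 0.386 after IL-33. In this ratio IL-33 stimulated 3 was the lowest of its group. It was 2.00, 2.03 and 1.96 in Controls 1 to 3, Control 2 being the highest of the 3 by a small margin, and 1.12, 1.39 and 0.897 in Blimp-1-deficient ILC2s. The groups of neither experiment overlapped. Tnfrsf4 to Tnfrsf18 went from 0.0139 to 0.0293 at rest to 0.129 to 0.225 after IL-33, and was 0.164 to 0.290 in Controls and 0.219 to 0.303 in Blimp-1-deficient ILC2s, which overlapped.

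**Figure D4:**
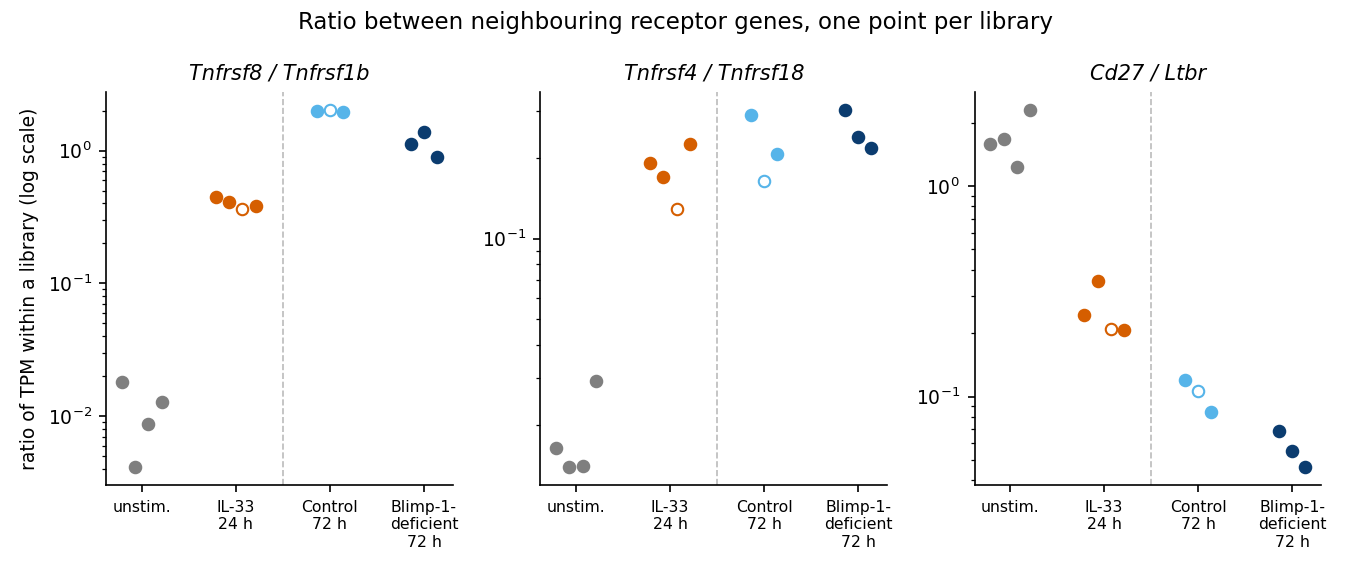
Ratio of TPM between neighbouring receptor genes within each library, on log axes that differ between panels. Open points are IL-33 stimulated 3 and Control 2. For Tnfrsf8 to Tnfrsf1b the Controls lie between 1.96 and 2.03 and the Blimp-1-deficient libraries between 0.897 and 1.39.

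The ligands of these receptors were measured in the same libraries. Of 11 ligands, 8 were tested after IL-33, of which 5 were higher and 2 lower (edgeR adjusted p below 0.05), beside 16.2% and 16.1% of all genes. The median log2 fold change over the 8 was 2.24, beside 0.06 over all genes. Tnfsf8, the ligand of CD30, went from 3.01 to 4.97 CPM at rest to 48.9 to 90.1 CPM (log2 fold change 4.11), and Tnfsf4, the ligand of OX40, from 12.2 to 15 CPM to 42.7 to 58.9 CPM (1.91). Tnfsf15, encoding TL1A, rested on 1 to 8 counts per unstimulated library and reached 6.31 to 9.13 CPM (log2 fold change 5.48, which depends on the fit at such counts). Tnf (2.89) and Lta (2.56) were also higher, while Ltb (-1.5) and Tnfsf14 (-1.08), which encode ligands of the lymphotoxin beta receptor, were lower. Tnfsf9, the ligand of 4-1BB, stood at 7.78 to 8.60 CPM at rest and 7.85 to 10.7 CPM after IL-33 (log2 fold change 0.12, adjusted p = 0.577). The ligands of GITR (Tnfsf18), Fas (Fasl) and CD27 (Cd70) were too scarce to be tested, with at most 15 counts in a library.

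In Blimp-1-deficient ILC2s 3 of 10 ligands tested were higher with all libraries and 0 lower, beside 0.45% and 0.306% of all genes. These were Tnfsf15, at 7.66 to 10.6 CPM against 1.43 to 1.70 in Controls (log2 fold change 2.53 ± 0.20, SE, edgeR adjusted p = 0.0122), Tnf, at 80.6 to 84.3 CPM against 15.1 to 19.7 (2.17 ± 0.12, adjusted p = 0.00441), and Ltb, at 43.1 to 59.1 CPM against 12.4 to 15.4 (1.82 ± 0.15, adjusted p = 0.0122). Tnfsf8 stood at 222 to 298 CPM against 23.1 to 73.4 in Controls (log2 fold change 2.48 ± 0.40, SE, edgeR adjusted p = 0.0544), so that CD30 and its ligand lay on opposite sides of 0. The 3 calls were lost when any Blimp-1-deficient library was left out, with the replicate block and with limma on TPM. Those of Tnfsf15 and Ltb were lost also without Control 1 or 3, and those of Tnf and Ltb also with library size alone. In the fits that lost all 3, at most 1 gene of the whole table was called higher and 0 lower. Over all genes 7 were higher and 2 lower without Control 1, 5 and 2 without Control 3. With library size alone 98 were higher and 73 lower. In all, Tnf lost its call in 8, Tnfsf15 in 9 and Ltb in 10 of 16 alternatives, with adjusted p up to 0.642. Without Control 2, where 8.25% of all genes were higher and 5.72% lower, 7 ligands were higher, Tnfsf8 (2.19 ± 0.23, SE, edgeR adjusted p = 0.00232) among them, and 1, Fasl, was lower at under 1 CPM in every library.

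**Figure D5:**
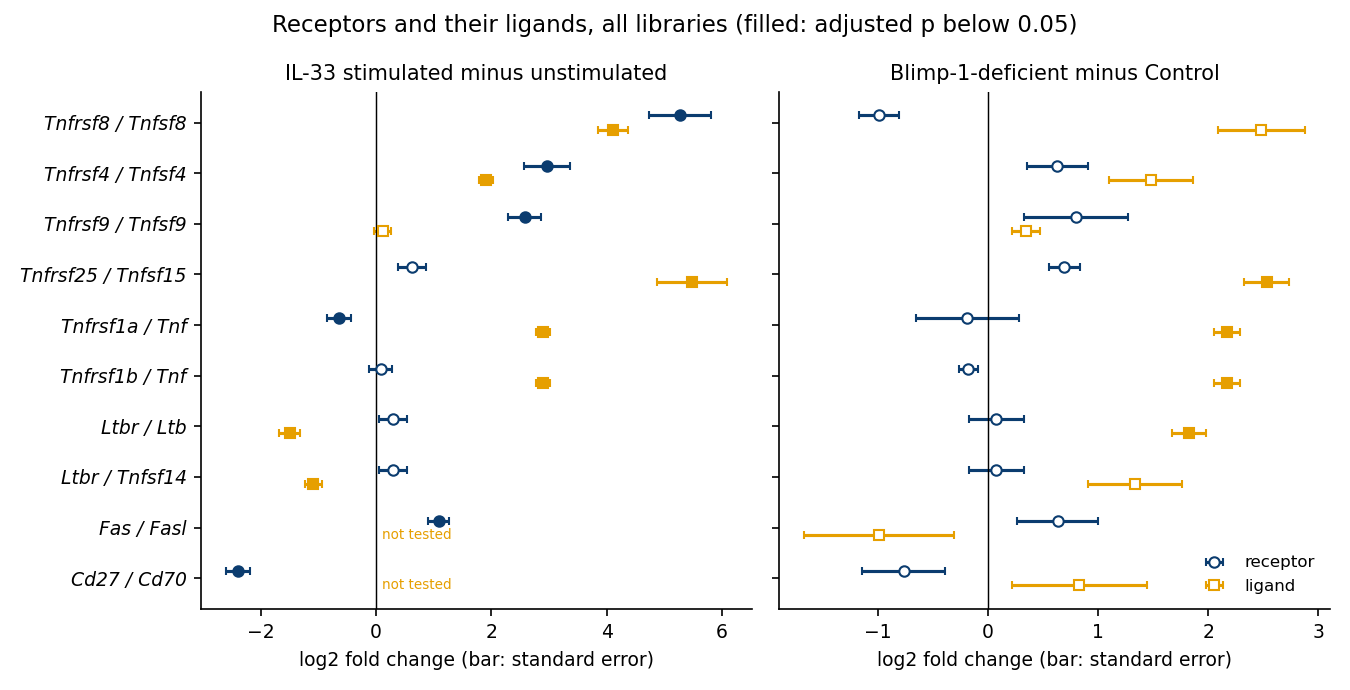
Log2 fold changes with standard errors for receptors (circles) and their ligands (squares) after IL-33 (left) and in Blimp-1-deficient ILC2s (right), all libraries. Filled symbols passed an adjusted p of 0.05. Tnfrsf8 and Tnfsf8 were both higher after IL-33, at 5.27 and 4.11, and stand at -0.99 and 2.48 on the right, where neither passed.

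The other receptors and the signalling genes are set beside the same 16.2% of all genes higher and 16.1% lower after IL-33. Of 18 other receptors of the family 14 were tested, and their 2 higher and 2 lower calls did not exceed those shares. The higher ones were Tnfrsf10b (a death receptor for TRAIL, log2 fold change 1.01) and Tnfrsf21 (DR6, 0.76), and the lower ones Tnfrsf26 (-0.66) and Relt (-0.68). The lower calls were lost in 9 and 8 of 18 alternatives, among them each library left out except IL-33 stimulated 3 (Relt also kept its call without IL-33 stimulated 1). Among 20 adaptors and regulators, 5 were higher and 1 lower. The higher ones were Tnfaip3 (3.10), which encodes the NF-kappaB inhibitor A20, Traf1 (1.25), Birc3 (1.25), which encodes the ubiquitin ligase cIAP2, Cflar (0.54), the caspase-8 inhibitor, and Tank (0.47). Fadd (-0.38), the adaptor of Fas, was lower. Of 11 NF-kappaB genes 6 were higher and 0 lower, with Nfkbia (2.23), Rel (1.88), Nfkb2 (1.88), Nfkbib (1.49) and Nfkbie (0.55) the 5 largest. Cflar and Fadd each lost their call in 7 alternatives, both without unstimulated 3 or IL-33 stimulated 1 or 2, and Fadd without unstimulated 1 or 2. Chuk, the other NF-kappaB gene called higher, lost its call in 10 of 18 alternatives (adjusted p up to 0.817), and Nfkbie and Tank lost theirs in 3, each with limma on TPM (adjusted p up to 0.211 and 0.404). Without IL-33 stimulated 3 the adaptors counted 8 higher and 5 lower and the NF-kappaB genes 7 and 3, beside 27.5% of all genes higher and 29.7% lower. With library size alone, where 11.7% of all genes were higher and 23.9% lower, the adaptors counted 5 and 6 and the NF-kappaB genes 5 and 3. With limma on log2(TPM + 1) these counts were 3 and 8 and 4 and 3, beside 6.53% and 30% of all genes. With DESeq2 they were 5 and 5 and 7 and 2, beside 19.5% and 18.8%.

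In the Blimp-1 experiment 0 of 13 other receptors, 0 of 20 adaptors and 0 of 11 NF-kappaB genes passed with all 6 libraries, although 4, 5 and 4 had an unadjusted p below 0.05 with edgeR, beside the 6.17% of all genes higher and 5.78% lower at that level. DESeq2 called 2, 3 and 4 of them higher and 0 lower, beside 3.24% and 3.2% of all genes. Without Control 2, where 8.25% of all genes were higher and 5.72% lower, 6 of 15 other receptors were higher, the 5 largest being Tnfrsf11b (1.02), Cd40 (0.79), Tnfrsf13b (0.68), Tnfrsf11a (0.67), which encodes RANK, and Tnfrsf26 (0.66). The adaptors then counted 3 higher, Tnfaip3 (0.64), Birc2 (0.53) and Rbck1 (0.36), and the NF-kappaB genes 4 higher, Nfkbie (0.65), Nfkb2 (0.63), Rel (0.57) and Relb (0.49). None of these 3 lists held a lower gene in that fit.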

How the data were processed

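Libraries were prepared from sorted ILC2s by SMART-seq v4 and Nextera XT and read as paired-end 75-base reads. Adaptors were removed with cutadapt and reads mapped by HISAT2 onto GRCm38. The authors deposited raw read counts per gene from Subread, whole numbers that are not normalized. The authors also deposited TPM per library, used for levels between genes. The submitters' processing notes list Bowtie2, Subread and DESeq2. The strand setting of the counting is not given in the sources used here. Each experiment has its own tables, and ATAC-seq was not used here.

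Counts were tested with edgeR 4.0.16 in R 4.3.3 (TMM, filterByExpr, quasi-likelihood, two-sided, no covariates, all libraries), with Benjamini-Hochberg adjustment over all genes tested at 0.05. CPM are TMM-normalized. The test was also run on simulated counts, with an outcome that is not reported here and lends no support to the results. Replicates are individual mice by the labels, whereas the paper's figure captions describe sorting samples from pooled animals. The 10 members and the lists of other receptors, ligands, adaptors, NF-kappaB genes and markers were chosen with earlier results of these data known. All members are named. From the lists, genes past the threshold are named, up to the 5 largest per list and direction, and ligands of the members also by pairing, chosen after their values were seen. For the 4 called members with the largest change after IL-33, the 3 likest genes are named, except 1 that is not reported here.

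Alternatives were DESeq2 1.42.0, its size factors (RLE) in edgeR, library size alone, no filter, a mean count of at least 50, limma 3.58.1 on log2(TPM + 1) and log2(TPM + 0.1) at a mean TPM of at least 1 and without filter, the replicate number as a block, counts without 7 loci (CT010467.1, Gm23935, Gm26917, Lars2, Mir6236, Gm15564 and mt-Rnr2), and each library left out. Depth set a floor of 3 counts at 0.296 CPM in IL-33 stimulated 3 and 0.731 CPM in Control 2, for counting error only. Positions come from GENCODE M21 and upstream sequences from RefSeq. Figures used matplotlib 3.10.9.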

Additional observations from a re-analysis of the deposited data

Results flagged for a closer look

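In IL-33 stimulated 3, the library with the fewest counts of its experiment, 3 receptors lay far below the other libraries of their group by Dixon's test. Tnfrsf1a was at 6.9 CPM there, against 9.88 to 10.3 in the other 3 stimulated libraries. Tnfrsf1b was at 126 CPM against 238 to 248, and Tnfrsf25 at 58.2 CPM against 124 to 131. The test was run on 20 gene and group combinations of 4 libraries, and chance marks about 1 in 20 where these are independent. All 3 fell in a library already set apart above. Genes of the same library share its depth and scaling, so the 3 are not independent and were not weighed against chance. Whether its depth or its 4.12% of counts in the 7 loci had a part was not tested.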

How the results depend on the processing

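After IL-33, Tnfrsf8, Tnfrsf4, Tnfrsf9, Fas and Cd27 kept their direction and passed in 18 of 18 alternatives. The count of receptors higher, 4, was 5 with DESeq2 and 4 to 6 with a library left out. The count of receptors lower, 2, was 1 with no filter and 1 with the replicate block, 3 with library size alone, without the 7 loci and with limma on TPM in each form, and 1 to 3 with a library left out. Of all genes 16.2% were higher in the main fit, 19.5% with DESeq2 and 11.8% to 27.5% with a library left out. The share lower was 16.1% in the main fit, 6.51% with no filter and 12.3% with the replicate block. It was 23.9% with library size alone, 23% without the 7 loci and 11.6% to 29.7% with a library left out. With limma it was 30% on log2(TPM + 1), 28.8% on log2(TPM + 0.1) and 16.1% without filter. In Blimp-1-deficient ILC2s, 0 receptors higher became 2 and 0 lower became 1 with DESeq2, and 1 was higher with a mean count of at least 50. With a library left out the counts were 0 to 2 and 0 to 1, the highest without Control 2. Tnfrsf1a there reversed from -0.19 to 0.54 without Control 2, its range with a library left out being -0.49 to 0.54. Another 25 changes of sign among receptors were past the threshold in neither fit, and the cause was not tested. The all-gene median log2 fold change of 0.06 after IL-33 was -0.10 with library size alone and -0.25 with limma on log2(TPM + 1). In the Blimp-1 experiment it went from -0.02 to 0.45 and 1.28. Over all genes, 4328 rose and 4666 fell without IL-33 stimulated 3 (2508 and 2484 with it), and 1483 and 1027 without Control 2 (78 and 53 with it). The Blimp-1 counts were 557 and 551 with DESeq2, 149 and 107 with a mean count of at least 50, 0 and 0 with limma on log2(TPM + 1) or with the replicate block, and 0 to 7 and 0 to 2 with another library left out. Without a filter, 1672 rose after IL-33. By the design text the 8 stimulation libraries come from 8 mice in separate groups, and the replicate numbers did not pair the samples (same-number correlations -0.113 to 0.313 after IL-33 and -0.155 to 0.137 in the Blimp-1 experiment, not every sample closest to its own number). With the replicate block 1802 rose and 1898 fell after IL-33. Levels in Control 2 rest on 3150795 counts outside the 7 loci, which limits scarce genes such as Cd27 most.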
